A study of Bos taurus with 46 samples.

Results

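Adhesion receptors of the ADGRE family and genes used as eosinophil markers were followed in circulating leukocytes of pregnant heifers. The set was a list of 6 named genes, ADGRE1, ADGRE3, ADGRE5, IL5RA, CCR3 and ALOX15, looked up by symbol in a table of 30675 genes. Of the 6, 5 were analysed; ADGRE1 was not analysed here. The list was built around ADGRE3, which was selected on its level varying more than 10-fold between heifers on D55, and the question was whether ADGRE3 follows the eosinophil genes.

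RNA of maternal blood leukocytes was sequenced from 23 Angus crossbred heifers, each bled on D55 and again on D105 of gestation, which gave 46 libraries. The AI group (n = 8) conceived by artificial insemination and carried control fetuses. The other heifers received embryos produced in vitro (IVP) and carried fetuses of control-like size (IVP-Normal, n = 6) or overgrown fetuses (IVP-LOS, n = 9), where LOS stands for large offspring syndrome. Heifers 604 and 664, the dams of the largest IVP-LOS fetuses, were also set against the other 21. The paper focused on this pair also because clustering of these same leukocyte transcriptomes set them apart. The grouping is therefore not independent of the levels compared. All fetuses in the IVP groups came from transferred embryos, so the route of conception and the transfer itself cannot be told apart, and the number of fetuses was not used here. White cells were taken from the buffy coat after red cells were lysed, so each library mixes all leukocyte types.

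The ADGRE genes encode adhesion G protein-coupled receptors with a long extracellular part built from epidermal growth factor-like repeats. ADGRE5, also called CD97, is found on most leukocytes and binds CD55, whereas in humans ADGRE3 is found mainly on neutrophils and other myeloid cells, and ADGRE1 marks eosinophils. IL5RA is the part of the interleukin-5 receptor that binds the cytokine on which eosinophils depend, CCR3 is the eotaxin receptor that guides them into tissue, and ALOX15 is a lipoxygenase that oxidises arachidonic acid. Blood eosinophils are a small share of leukocytes, and in bulk RNA fewer cells of a type and less RNA per cell cannot be told apart.

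Reads assigned to genes numbered 18692653 to 24502012 in a library. Levels are given as CPM, each gene's share of its library's reads on a common scale, after TMM scaling over all 46 libraries, and each level is compared only with other levels of the same gene. The sample labels place the D105 libraries of AI and IVP-LOS heifers under the name BACKUP and the remainder under the name New. Day and label set therefore cannot be told apart in these groups, and IVP-Normal is the group with both days in 1 set. A figure legend of the paper places D55 blood in winter and D105 blood in summer, and its text names autumn, spring and summer. Season was not used here, so day and season cannot be told apart in any group, IVP-Normal included. On D105, reads on no gene were 24.3% to 31.1% in the 21 other heifers, and 38.6% and 36.7% in heifers 604 and 664, whose libraries held the fewest reads on genes. The D105 library of heifer 637 had the highest summed neutrophil markers of that day, 15590 CPM, and group comparisons that hold it were repeated without it. Genes of the main leukocyte types were read: on D55 the T cell receptor gene CD3E had a median of 463 CPM, the B cell gene MS4A1 1222 CPM, the monocyte gene CSF1R 204 CPM and the neutrophil gene CXCR2 13.6 CPM. Of 17 eosinophil markers other than the 5 genes, 15 were in the table; GATA1 had a D55 median of 1.88 CPM and PTGDR2 13.4 CPM, while OLIG1 and OLIG2 had at most 13 reads in any library. EPX and PRG2, which encode eosinophil granule proteins, were not analysed here.

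On D55 a few heifers had far less ADGRE3 than the others. On that day its level ran from 1.52 CPM in heifer 664 to 46.9 CPM in heifer 602, with a median of 23.3 CPM over 23 heifers, a range of 30.9-fold resting on 36 to 1055 reads. Of the other genes, ALOX15 had a D55 range of 38.3-fold, also past 10-fold, and CCR3 came next with 5.52-fold, followed by IL5RA with 3.94-fold and ADGRE5 with 2.36-fold. These ranges are the measure by which ADGRE3 was selected and are a description only. The lowest on D55 were 3 heifers of the IVP-LOS group, 664 with 1.52 CPM, 557 with 3.15 CPM and 604 with 3.499 CPM. The next were heifer 648 of the AI group with 7.33 CPM and heifer 519 of the IVP-Normal group with 8.15 CPM, and the other 18 heifers lay between 18.6 and 46.9 CPM.

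The same IVP-LOS heifers were again the lowest on D105, which the choice of the gene did not use. Heifer 557 had 7.65 CPM, heifer 664 had 9.001 CPM and heifer 604 had 13.4 CPM, while the other 20 had 43.5 CPM or more. Heifer 648, in place 4 from the lowest on D55, had 138 CPM on D105, in place 18. Heifer 519 was in place 5 on both days, with 45.3 CPM on D105. Over 23 heifers the log2 levels on the 2 days were correlated, with a Pearson r of 0.77 (permutation p = 0.00015, adjusted over the 5 genes 0.00075) and a Spearman rho of 0.52 (permutation p = 0.0118, adjusted 0.0294). The relation weakened to r = 0.53 (adjusted permutation p = 0.0367) without heifers 557 and 664, the pair farthest from the D55 median, and its rho of 0.37 (adjusted permutation p = 0.122) no longer passed the test. Without heifers 604 and 664 r was 0.59 (adjusted permutation p = 0.0178) and rho 0.37 (adjusted permutation p = 0.121). It was r = 0.20 (adjusted permutation p = 0.403) without 557, 604 and 664, so it rests on these heifers, who were singled out after their levels were seen. Within groups r was 0.89 in IVP-LOS (n = 9), 0.76 in IVP-Normal (n = 6) and 0.17 in AI (n = 8).

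**Figure D1:**
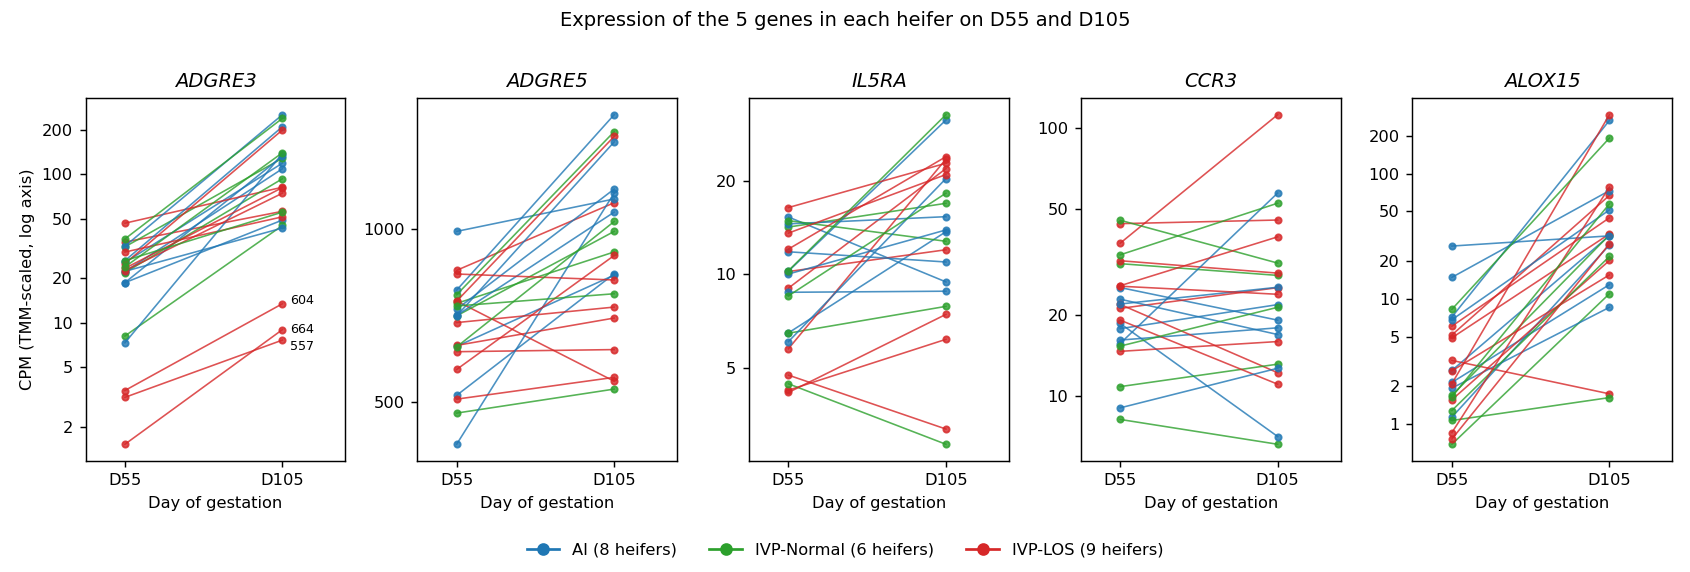
CPM on a log axis (y) on D55 and D105 (x) for each gene, with 1 line per heifer coloured by group. ADGRE3 was higher on D105 in all 23 heifers, and heifers 557, 604 and 664 lay lowest on both days, at 7.65 to 13.4 CPM on D105.

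The other genes kept part of their order between days. CCR3 had r = 0.66 (adjusted permutation p = 0.00147; rho = 0.69) and IL5RA r = 0.56 (adjusted permutation p = 0.00947; rho = 0.45). ADGRE5 reached r = 0.40 (adjusted permutation p = 0.072; rho = 0.42, adjusted permutation p = 0.0473), and ALOX15 r = 0.37 (adjusted permutation p = 0.0846; rho = 0.44, adjusted permutation p = 0.0449). For CCR3 the relation was r = 0.56 without its 2 farthest heifers, and for IL5RA r = 0.48. Within AI heifers the r of CCR3 was 0.10 and that of IL5RA -0.27.

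ADGRE3 was higher on D105 than on D55 in all 23 heifers, and ALOX15 in 22 of 23. In the AI heifers ADGRE3 ran from 7.33 to 32.8 CPM on D55 (median 22.2) and from 43.5 to 252 CPM on D105 (median 125.9). The lowest AI value on D105 was above the highest on D55, and the level was higher on D105 in 8 of 8 heifers. The fitted log2 fold change was 2.61 (SE 0.35, edgeR quasi-likelihood FDR = 0.000149). In IVP-Normal heifers ADGRE3 ran from 8.15 to 36.7 CPM on D55 (median 25.01) and from 45.3 to 239 CPM on D105 (median 110.96). Here too the days did not overlap, 6 of 6 heifers had more on D105, and the log2 fold change was 2.23 (SE 0.41, edgeR FDR = 0.0114). In IVP-LOS heifers ADGRE3 ran from 1.52 to 46.9 CPM on D55 (median 23.3) and from 7.65 to 199 CPM on D105 (median 56.4). The days overlapped in this group, where 6 of 9 values on D105 were above the highest on D55, and each of the 9 heifers was higher on D105. The log2 fold change was 1.61 (SE 0.66, edgeR FDR = 0.309) in the fit without heifers as blocks. With each heifer as a replicate block, which compares the libraries of 1 animal with each other, it was 1.59 (SE 0.24, edgeR FDR = 0.0125).

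ALOX15 showed the largest fitted differences between days among the 5 genes in each group. In AI heifers it ran from 1.14 to 26.4 CPM on D55 (median 4.75) and from 8.57 to 267 CPM on D105 (median 32.0). The days overlapped through heifers 609 and 647 on D55, whereas 8 of 8 heifers were higher on D105, and the log2 fold change was 2.99 (SE 0.76, edgeR FDR = 0.0163). In IVP-Normal heifers the level ran from 0.690 to 8.26 CPM on D55 (median 1.47) and from 1.63 to 193 CPM on D105 (median 27.1). All 6 heifers were higher on D105, and the log2 fold change was 4.42 (SE 0.98, edgeR FDR = 0.028). In IVP-LOS heifers it ran from 0.760 to 6.06 CPM on D55 (median 2.66) and from 1.74 to 296 CPM on D105 (median 33.0). Heifer 557 was the exception, with 3.23 CPM on D55 and 1.74 CPM on D105, and 8 of 9 heifers were higher on D105. The log2 fold change was 4.43 (SE 0.73, edgeR FDR = 0.0113), and without heifers 604 and 664 the same size of difference had an edgeR FDR of 0.0748. In individual heifers the ALOX15 change spanned from -0.73 to 6.83 on the log2(CPM + 0.5) scale, the latter in heifer 663.

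ADGRE5 had smaller fitted differences. In AI heifers it ran from 421 to 992 CPM on D55 (median 707) and from 832 to 1587 CPM on D105 (median 1144), with a log2 fold change of 0.76 (SE 0.16, edgeR FDR = 0.00559). The days overlapped, and 8 of 8 heifers had more on D105. In IVP-Normal heifers it ran from 478 to 769 CPM on D55 (median 721) and from 525.998 to 1482 CPM on D105 (median 953), with a log2 fold change of 0.49 (SE 0.20, edgeR FDR = 0.3). In IVP-LOS heifers it ran from 505 to 848 CPM on D55 (median 687) and from 543 to 1454 CPM on D105 (median 732), with a log2 fold change of 0.27 (SE 0.18, edgeR FDR = 0.556). The days overlapped in both IVP groups.

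The receptors IL5RA and CCR3 passed the test between days in none of the 3 groups. IL5RA had medians of 10.1 and 13.8 CPM on D55 and D105 in AI heifers, 9.40 and 14.9 CPM in IVP-Normal heifers and 9.04 and 20.99 CPM in IVP-LOS heifers. Its log2 fold changes were 0.58 (SE 0.26), 0.63 (SE 0.46) and 0.83 (SE 0.38), and the days overlapped in every group. CCR3 had medians of 18.3 and 18.6 CPM in AI heifers, 23.3 and 24.8 CPM in IVP-Normal heifers and 25.7 and 25.4 CPM in IVP-LOS heifers. Its log2 fold changes were 0.27 (SE 0.32), 0.08 (SE 0.49) and 0.38 (SE 0.37), and 13 of 23 heifers had more on D105.

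**Figure D2:**
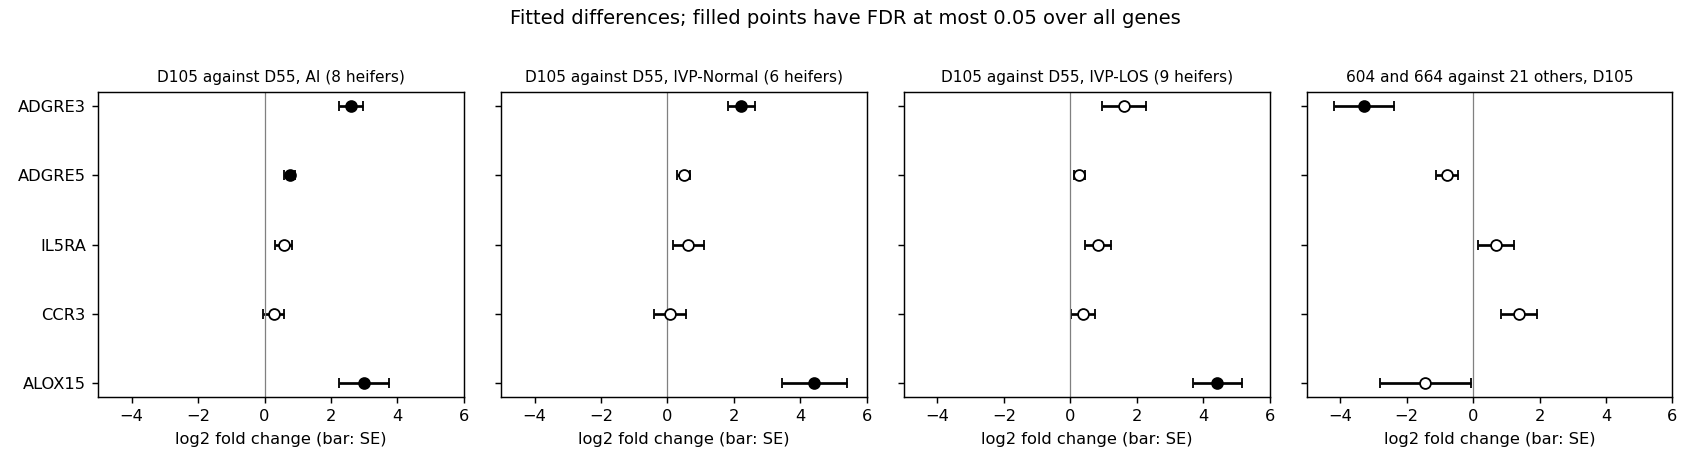
Fitted log2 fold changes (x) with standard errors derived from the F statistic for the 5 genes (y) between days in each group and for heifers 604 and 664 against the other 21 on D105. The fits had no heifer blocks. Filled points passed an FDR of 0.05 over all genes tested: ADGRE3, ADGRE5 and ALOX15 in AI, ADGRE3 and ALOX15 in IVP-Normal, ALOX15 in IVP-LOS, and ADGRE3 in the last panel.

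Counted together, 3 of 5 genes were called in AI, where 9.95% of all genes tested were called, 2 of 5 in IVP-Normal, where 2.45% were called, and 1 of 5 in IVP-LOS, where 0.251% were called. All 6 calls, from fits without heifers as blocks, were of higher levels on D105. The median log2 fold change of the 5 genes was 0.76 in AI, 0.63 in IVP-Normal and 0.83 in IVP-LOS, against -0.02, -0.03 and 0.01 over all genes. Neutrophil markers were also called higher in AI and IVP-Normal, but not in IVP-LOS: 10 of 10 were higher on D105 in AI (median log2 fold change 1.44), 7 of 10 in IVP-Normal (1.36) and 0 of 10 in IVP-LOS (1.48). The summed level of these markers was 1035 to 2119 CPM on D55 and 2577 to 6257 CPM on D105 in AI, 651 to 1569 and 1571 to 7055 CPM in IVP-Normal, and 772 to 2204 and 639 to 15590 CPM in IVP-LOS. Their part in the changes of ADGRE3 and ADGRE5 was not tested. The counts of neutrophil markers also come from fits without heifers as blocks. With heifers as blocks, 2 of 5 genes were called in IVP-LOS, ADGRE3 and ALOX15, where 162 of 15163 genes were called. The change between days in IVP-Normal or in IVP-LOS did not pass the test of its difference from that in AI for any of the 5 genes, and 0% of all genes passed either test, with 546 and 795 genes at an unadjusted p under 0.05 and none called by DESeq2. The largest of these differences were those of ALOX15, 1.44 (SE 1.202) in IVP-Normal and 1.44 (SE 1.01) in IVP-LOS, and that of ADGRE3 in IVP-LOS, -0.996 (SE 0.78).

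Part of the eosinophil markers outside the set differed between days, and those named here were picked after their values were seen. In AI, where 7.21% of all genes were called higher, 5 of 12 tested were higher on D105: the transcription factors CEBPE (log2 fold change 1.43, SE 0.39, edgeR FDR = 0.0267) and GATA1 (1.44, SE 0.36, edgeR FDR = 0.0156), the histamine receptor HRH4 (1.08, SE 0.30, edgeR FDR = 0.0272), and the cytokine receptor chains IL3RA (1.71, SE 0.30, edgeR FDR = 0.00126) and CSF2RB. In IVP-Normal 1 of 12 was higher, IL3RA, and in IVP-LOS 1 of 12, CEBPE (2.30, SE 0.47, edgeR FDR = 0.0492). The summed eosinophil markers ran from 116.3 to 213 CPM on D55 and from 170 to 403 CPM on D105 in AI, from 91.9 to 191 and from 123.4 to 348 CPM in IVP-Normal, and from 115.7 to 212 and from 94.6 to 761 CPM in IVP-LOS. CSF2RB, which other myeloid cells also express, had medians of 98.4 CPM on D55 and 141 CPM on D105. The next highest medians in the list were those of PTGDR2, 13.4 and 13.1 CPM. The summed level therefore mainly follows CSF2RB and is not a measure of eosinophils alone. Of 6 basophil and mast cell markers tested in AI, 2 were called higher on D105, MS4A2 and GATA2. Their log2 fold changes were 5.08 (SE 0.57, edgeR FDR = 4.9e-05) and 4.23 (SE 0.44, edgeR FDR = 2.86e-05). Both were near 0 on D55, with medians of 0.0421 and 0.0796 CPM and at most 6 reads in any library of that day. They passed the filter on low counts through their D105 libraries. Only a call of higher was therefore possible, and these calls do not test the direction. In IVP-Normal and in IVP-LOS 3 of the 8 listed markers were tested, and none was called.

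Among the ligands, partners and enzymes of these pathways, ALOX5 and ALOX5AP had the largest differences between days in each group. Of 11 pathway genes tested, 5 were higher on D105 in AI, 2 in IVP-Normal and 1 in IVP-LOS, where 7.21%, 2.27% and 0.198% of all genes were called higher, and none was lower in these groups. ALOX5, which starts leukotriene synthesis, had log2 fold changes of 2.83 (SE 0.62, edgeR FDR = 0.00593) in AI, 3.95 (SE 0.73, edgeR FDR = 0.0112) in IVP-Normal and 4.22 (SE 0.67, edgeR FDR = 0.00737) in IVP-LOS. ALOX5AP, its partner protein, had 1.69 (SE 0.27, edgeR FDR = 0.000491) in AI and 2.13 (SE 0.41, edgeR FDR = 0.013) in IVP-Normal. The shared receptor chain CSF2RB (0.85, SE 0.23, edgeR FDR = 0.0236) and the signalling genes JAK2 (0.61, SE 0.12, edgeR FDR = 0.00324) and STAT5B (0.55, SE 0.10, edgeR FDR = 0.00125) were higher in AI. CD55, the ligand of ADGRE5, had medians of 775 CPM on D55 and 909 CPM on D105 over 23 heifers, and passed the test in none of the 3 groups. The cytokine IL5 had at most 3 reads in a library, and the eotaxin gene CCL11 had none, so neither was measurable in blood leukocytes at this depth.

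No relation of ADGRE3 with the eosinophil genes passed the test on D105. Pairs of genes were compared over the 23 heifers of 1 day on the log2(CPM + 0.5) scale, and p-values were adjusted over 30 relations, 10 pairs on each day and for the change between days. With IL5RA the relation on D105 was r = 0.09 (permutation p = 0.692, adjusted 0.813) and rho = -0.02 (permutation p = 0.942, adjusted 0.963), and with CCR3 r = -0.11 (permutation p = 0.607, adjusted 0.813) and rho = 0.05 (permutation p = 0.825, adjusted 0.884). With ALOX15 it was r = 0.35 (permutation p = 0.103, adjusted 0.309) and rho = 0.23 (permutation p = 0.3, adjusted 0.529). Without heifers 557 and 664, the farthest from the median of ADGRE3, r was -0.10 with IL5RA, -0.21 with CCR3 and 0.14 with ALOX15. Within the BACKUP set (n = 17) r was 0.08, -0.28 and 0.45, and within the 6 New libraries, all of them IVP-Normal, 0.26, 0.74 and 0.20, in the same order. In single values, on D105 heifers 604 and 664 had 13.4 and 9.001 CPM of ADGRE3, the lowest but for heifer 557, and 23.5 and 24.0 CPM of IL5RA, above the IL5RA median of 13.9 CPM. Heifer 557 was low in both, with 3.18 CPM of IL5RA, second lowest of 23.

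ADGRE3 was related to ADGRE5 on D105, with r = 0.79 (permutation p = 1e-05, the smallest possible, adjusted 0.00015) and rho = 0.80 (permutation p = 4e-05, adjusted 0.0012). The relation was r = 0.72 (adjusted permutation p = 0.0023) without heifers 557 and 664, 0.68 (adjusted permutation p = 0.0072) without 557, 604 and 664, and 0.76 (adjusted permutation p = 0.00045) after subtraction of group means. Within the BACKUP set r was 0.81 (n = 17) and within the New set 0.94 (n = 6), and within AI, IVP-Normal and IVP-LOS it was 0.43, 0.94 and 0.85. The changes of ADGRE3 and ADGRE5 between days were also related, with r = 0.60 (permutation p = 0.00268, adjusted 0.0201; rho = 0.61, permutation p = 0.00253, adjusted 0.019). After subtraction of group means this was r = 0.48 (adjusted permutation p = 0.0833). On D55 it did not pass the test, with r = 0.29 (permutation p = 0.186, adjusted 0.383) and rho = 0.32 (permutation p = 0.133, adjusted 0.306); the difference between the days was not tested. ADGRE3 and ADGRE5 lie on the same chromosome with 10 annotated genes between them in the RefSeq table of assembly ARS-UCD2.0, and neither overlaps another gene.

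On D55 ADGRE3 was most related to CCR3 among the 4 other genes, by rank. The rho was 0.55 (permutation p = 0.00801, adjusted 0.0481), whereas r was 0.36 (permutation p = 0.0939, adjusted 0.309), so the call depended on the measure. The rho call was also lost with upper-quartile scaling (rho = 0.53, adjusted permutation p = 0.0569), after subtraction of group means (rho = 0.41, adjusted permutation p = 0.143) and without heifers 557 and 664 (rho = 0.51, adjusted permutation p = 0.0859). Heifers 557 and 604 had little ADGRE3 (3.15 and 3.499 CPM) with 21.2 and 37.1 CPM of CCR3, near and above the CCR3 median of 21.97 CPM. Without heifers 604 and 664 r was 0.57 (adjusted permutation p = 0.0372), and without 557, 604 and 664 it was 0.80 (adjusted permutation p = 0.00045). Without heifers 557 and 664 it was 0.38 (adjusted permutation p = 0.286). Heifers 519 and 648, with 8.15 and 7.33 CPM of ADGRE3, also had the least CCR3, 8.19 and 9.05 CPM. Within AI, IVP-Normal and IVP-LOS r was 0.88, 0.80 and 0.42. With IL5RA r was 0.22 (permutation p = 0.312, adjusted 0.586; rho = 0.27, permutation p = 0.214, adjusted 0.458) and with ALOX15 0.30 (permutation p = 0.158, adjusted 0.375; rho = 0.33, permutation p = 0.129, adjusted 0.306). The changes of ADGRE3 and CCR3 between days had r = 0.08 (permutation p = 0.715, adjusted 0.813; rho = 0.06, permutation p = 0.802, adjusted 0.884).

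**Figure D3:**
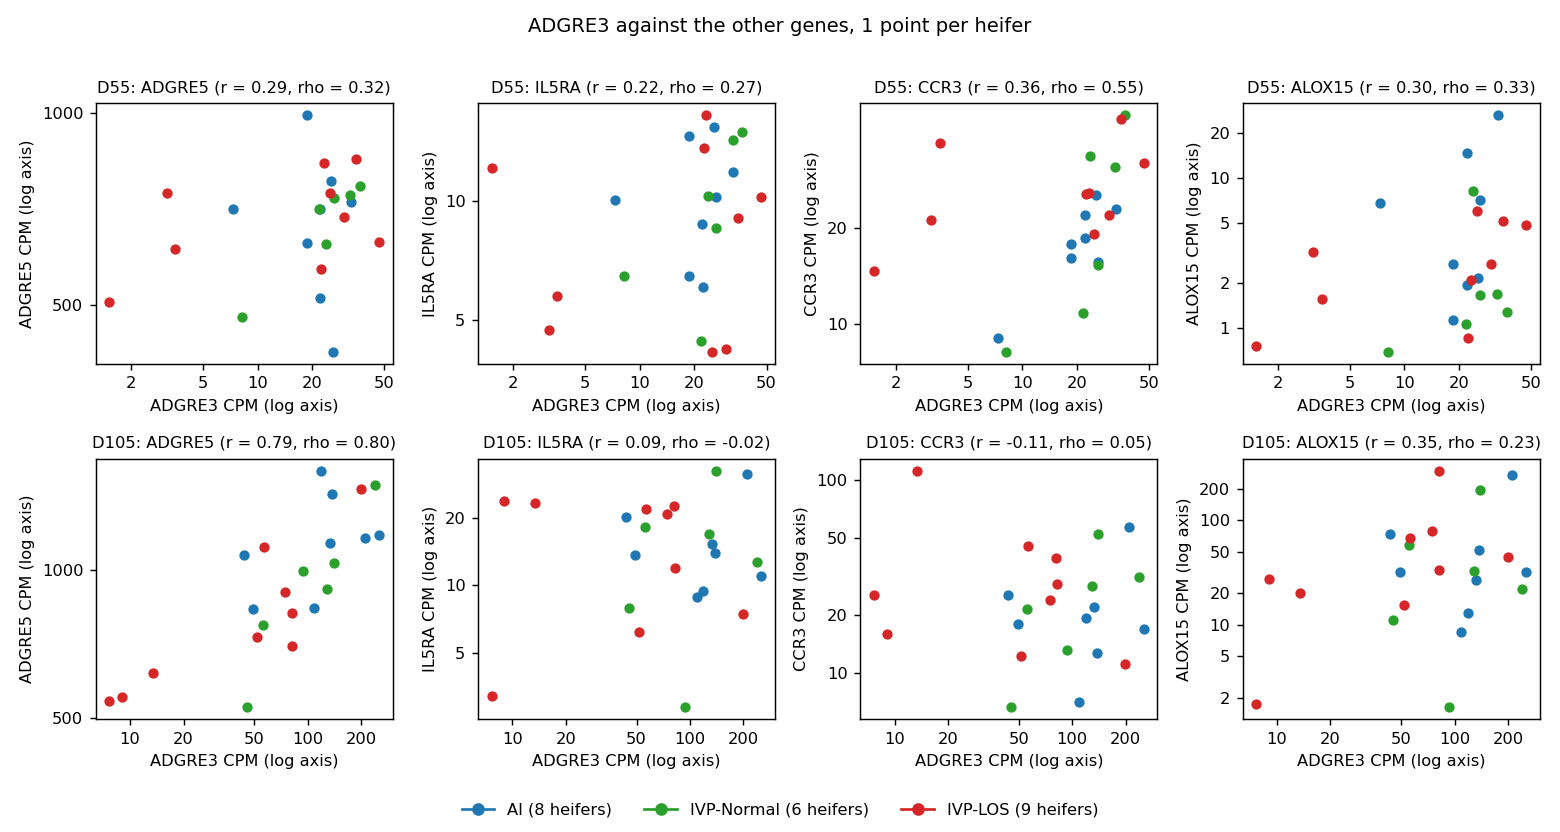
ADGRE3 CPM (x, log axis) against the CPM of each other gene (y, log axis), with 1 point per heifer coloured by group, D55 in the upper row and D105 in the lower. The tight rise is that with ADGRE5 on D105 (r = 0.79), while the points for IL5RA and CCR3 on D105 are scattered (r = 0.09 and -0.11).

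Pooling the 46 libraries gave a higher value for ALOX15. Over all libraries, which are 2 per heifer and not independent, r between ADGRE3 and ALOX15 was 0.63, against 0.30 on D55 and 0.35 on D105, and both genes were higher on D105. The pooled r was 0.73 with ADGRE5, 0.32 with IL5RA and 0.08 with CCR3.

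Among the eosinophil genes, 2 of 3 pairs passed the test on D105. IL5RA and ALOX15 had r = 0.86 (permutation p = 1e-05, the smallest possible, adjusted 0.00015) and rho = 0.73 (permutation p = 8e-05, adjusted 0.0012), with r = 0.73 (adjusted permutation p = 0.0023) without heifers 557 and 633, which had 3.18 and 2.84 CPM of IL5RA and 1.74 and 1.63 CPM of ALOX15. Within AI, IVP-Normal and IVP-LOS r was 0.95, 0.99 and 0.73. IL5RA and CCR3 had r = 0.61 (permutation p = 0.002, adjusted 0.02) and rho = 0.68 (permutation p = 0.00044, adjusted 0.0044), with r = 0.77 without the same heifers and 0.55 (adjusted permutation p = 0.0712) within the BACKUP set. CCR3 and ALOX15 had r = 0.47 (permutation p = 0.0258, adjusted 0.111) and rho = 0.50 (permutation p = 0.0154, adjusted 0.0768). Without 519 and 604, the heifers farthest on CCR3, r was 0.59 (adjusted permutation p = 0.0255). Heifer 604 had 111.8 CPM of CCR3, the highest of all, with 20.3 CPM of ALOX15.

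On D55 none of these 3 pairs passed the test. IL5RA and ALOX15 had r = -0.10 (permutation p = 0.635, adjusted 0.813; rho = -0.15, permutation p = 0.497, adjusted 0.711), IL5RA and CCR3 r = 0.30 (permutation p = 0.162, adjusted 0.375; rho = 0.33, permutation p = 0.12, adjusted 0.306), and CCR3 and ALOX15 r = 0.15 (permutation p = 0.494, adjusted 0.813; rho = 0.20, permutation p = 0.356, adjusted 0.585). ALOX15 was low on D55, at 0.690 to 26.4 CPM and from 16 reads, so counting error is larger there. The part of counting error in these relations was not tested. The changes of IL5RA and CCR3 between days were related by r = 0.56 (permutation p = 0.00534, adjusted 0.032) but not by rank (rho = 0.47, permutation p = 0.0274, adjusted 0.103), and the r was 0.47 (adjusted permutation p = 0.131) without heifers 604 and 647.

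Marker genes of leukocyte types were set beside ADGRE3 as a description over 23 heifers, whose values share libraries and depth. The single markers named were picked after their values were seen. On D105 its Spearman rho with 10 neutrophil markers had a median of 0.85 (0.67 to 0.93), against -0.03 over 16486 genes. The rho was 0.93 with CXCR1 and 0.91 with CXCR2, receptors that draw neutrophils to chemokines, and 0.91 with MMP25, a neutrophil membrane protease. With 8 monocyte markers the median was 0.57, and the highest was that of the lysosomal protein CD68 (0.92). With 13 eosinophil markers the median was 0.08, from -0.27 for CYSLTR2 to 0.86 for CSF2RB, and with 5 B cell markers it was -0.41. With 6 basophil and mast cell markers it was 0.45. On D55 the medians were smaller, 0.34 for neutrophil, 0.35 for monocyte, 0.14 for eosinophil and -0.15 for B cell markers, with 0.44 for 4 platelet markers. ADGRE5 on D105 had a median rho of 0.76 with neutrophil, 0.77 with monocyte and -0.61 with B cell markers.

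For IL5RA, CCR3 and ALOX15 the order of these lists differed on D105. The median rho with eosinophil markers was 0.45 for IL5RA, 0.43 for CCR3 and 0.69 for ALOX15, and with neutrophil markers -0.11, -0.09 and 0.17. With 6 basophil and mast cell markers it was 0.16, 0.06 and 0.59, so the high values of ALOX15 were not particular to eosinophil markers. GATA1 ranked highest among all 16486 genes for IL5RA on D105 (rho = 0.86), and SMPD3, a sphingomyelinase gene, highest for ALOX15 (rho = 0.92). CEBPE had a rho of 0.81 with IL5RA and the prostaglandin D2 receptor gene PTGDR2 one of 0.90 with ALOX15. On D55 the eosinophil medians were -0.07 for IL5RA, 0.11 for CCR3 and 0.37 for ALOX15, and ALOX15 had 0.52 with neutrophil markers. CCR3 also had high values with platelet markers, with a median rho of 0.68 on D55 and 0.60 on D105, and with PF4, a platelet chemokine, 0.82 and 0.61. The summed platelet markers of heifer 604 were 2543 CPM on D105, the highest of 23, as was its CCR3; their part in the CCR3 level was not tested. With 3 red cell markers CCR3 had medians of 0.74 and 0.48. The annotated span of CCR3 overlaps that of LOC529196 and the span of ALOX15 that of LOC112442630, so reads in a shared stretch can go uncounted as ambiguous in union mode.

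**Figure D4:**
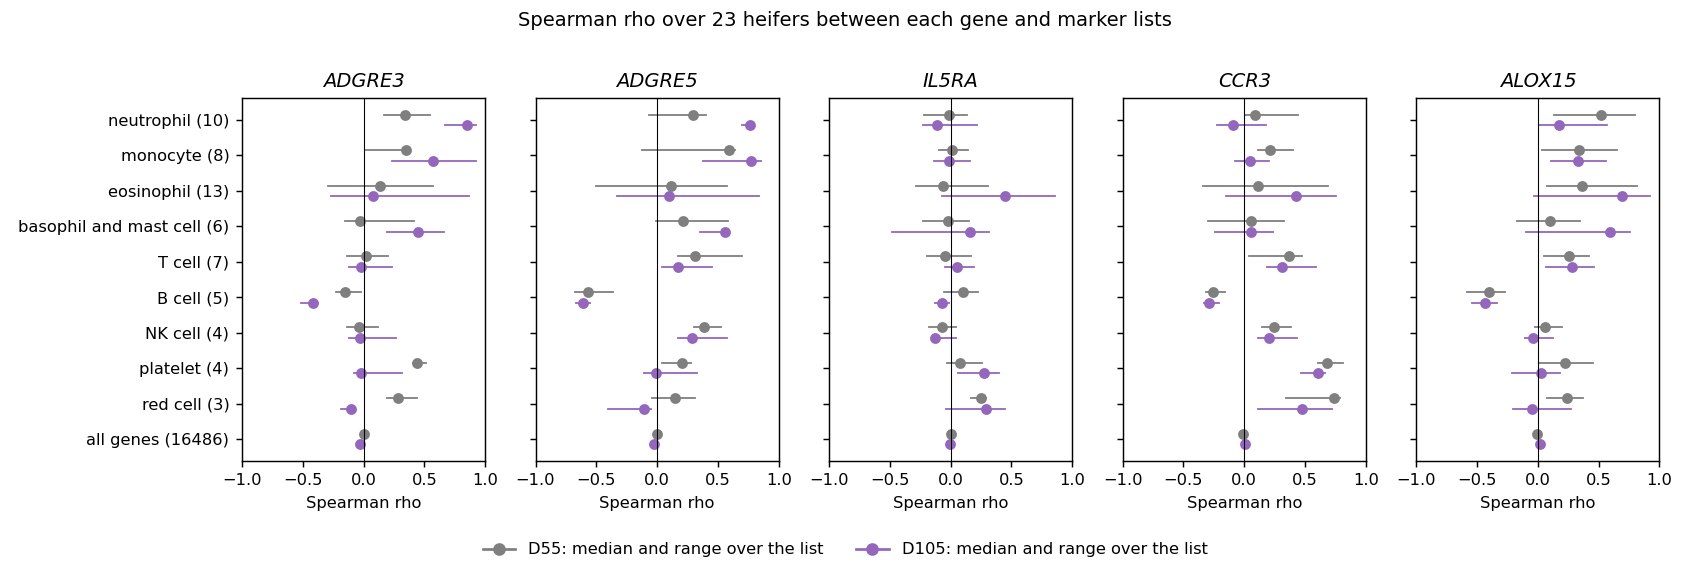
Spearman rho over 23 heifers (x) between each of the 5 genes (panels) and lists of marker genes (y, number of genes in brackets), with the median as a point and the range as a line, on D55 in grey and D105 in purple. On D105 ADGRE3 and ADGRE5 lie far right for neutrophil markers (medians 0.85 and 0.76), whereas IL5RA and ALOX15 do so for eosinophil markers (0.45 and 0.69), and CCR3 for platelet markers (0.60). ALOX15 also lies to the right for basophil and mast cell markers (0.59).

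The genes most like each of the 5 over both days were found by ranking 16486 genes on the mean of the 2 daily rho values. For ADGRE3 they were PPARD (mean rho 0.80), TNIP1 (0.79), DAGLA (0.78), ATG2A (0.78) and P2RY12 (0.77). ADGRE5 ranked 416th for ADGRE3, CCR3 2490th, ALOX15 2753rd and IL5RA 5162nd. For ADGRE5 the first were IFNGR1 (0.86), SSH2 (0.84) and SRGN (0.83), and for CCR3 VCL (0.86), RBM11 (0.86) and NPL (0.85). For IL5RA they were ADGRB2 (0.66), PXYLP1 (0.66) and UBAC2 (0.63), with CCR3 in 26th place. For ALOX15 they were LOC100297044 (0.90), ALOX5 (0.87) and LOC100848006 (0.82), and ALOX5 had a rho of 0.84 on D55 and 0.90 on D105.

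Between groups on the same day none of the genes passed the test. On D55 0 of 4 genes were called in each comparison of AI, IVP-Normal and IVP-LOS, with 0% of all genes called in each, and ADGRE3 is described above without a test. The largest differences were those of ALOX15, with a log2 fold change of -1.70 (SE 0.74, edgeR FDR = 0.498) in IVP-Normal and -1.38 (SE 0.58, edgeR FDR = 0.636) in IVP-LOS against AI. ALOX15 medians on D55 were 4.75 CPM in AI, 1.47 CPM in IVP-Normal and 2.66 CPM in IVP-LOS, and the groups overlapped. CCR3 had a log2 fold change of 0.54 (SE 0.21, edgeR FDR = 0.636) in IVP-LOS against AI. On D105 0 of 5 genes were called in each comparison, again with 0% of all genes. Here ADGRE3 had a log2 fold change of -1.04 (SE 0.54, edgeR FDR = 0.754) in IVP-LOS against AI and ADGRE5 one of -0.48 (SE 0.19, edgeR FDR = 0.754). Without heifer 637, which had 199 CPM of ADGRE3, these were -1.47 (SE 0.51, edgeR FDR = 0.173) and -0.61 (SE 0.16, edgeR FDR = 0.0973). Comparisons with IVP-Normal on D105 also set the New against the BACKUP libraries. No genes were called at the FDR threshold in any of these comparisons, and between 501 and 1522 genes had an unadjusted p under 0.05. With DESeq2 between 1 and 43 genes were called in them, and with edgeR's likelihood ratio test between 1 and 11, none of the genes followed here among them.

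The dams of the largest fetuses had low ADGRE3 on both days. On D55 heifers 604 and 664 had 3.499 and 1.52 CPM, a log2 fold change of -3.26 against the other 21, given without a test. The paper lists ADGRE3 among the genes that differed in these dams on D55 by both edgeR and DESeq2. It does not list the gene for D105, where its edgeR analysis called far fewer genes than the fit here. None of the 4 other genes was called on D55, where 0.0179% of all genes were. On D105 they had 13.4 and 9.001 CPM against 7.65 to 252 CPM, and heifer 557 alone was below them. The log2 fold change was -3.29 (SE 0.90, edgeR FDR = 0.015), the 1 call among the 5 genes, in a comparison in which 21.1% of all genes were called. Within the BACKUP set it was -3.25 (SE 0.94, edgeR FDR = 0.0174). The pair was singled out in part by clustering of the D105 transcriptomes, so these FDRs are not those of a grouping fixed beforehand. With either heifer left out, 1 library stands against 21 and is assumed to vary like the others, which alone give the spread. The fold change was then of similar size and was not called, with -3.59 (edgeR FDR = 0.102) without 604 and -3.03 (edgeR FDR = 0.156) without 664.

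ADGRE5 was 617 CPM in heifer 604 and 551 CPM in heifer 664 on D105, both among the low values of a range of 525.998 to 1587 CPM, with a log2 fold change of -0.79 (SE 0.32, edgeR FDR = 0.0765). CCR3 differed between the pair, with 111.8 CPM in 604 and 15.98 CPM in 664. Its log2 fold change was 1.37 (SE 0.55, edgeR FDR = 0.0715), and it was -0.61 (edgeR FDR = 0.66) without 604 and 2.18 (edgeR FDR = 0.0466) without 664, so its direction rests on heifer 604. These last FDRs again set 1 library against 21, with the spread taken from the others. IL5RA had 0.69 (SE 0.55, edgeR FDR = 0.371) and ALOX15 -1.43 (SE 1.36, edgeR FDR = 0.454), with 20.3 and 27.6 CPM of ALOX15 in 604 and 664, near the median of 32.0 CPM.

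Markers of other cells differed with ADGRE3 in these heifers. On D105, 9 of 10 neutrophil markers were lower in 604 and 664 (median log2 fold change -3.53), as were 5 of 8 monocyte markers (-2.52), and 3 of 5 B cell (0.82) and 3 of 4 platelet markers (1.90) were higher, against -0.02 over all genes. The summed platelet markers on D105 were 2543 CPM in heifer 604, the highest of 23. In heifer 664 they were 325 CPM, in place 16 from the lowest, so the platelet difference rests largely on heifer 604. The summed neutrophil markers on D105 were 639 CPM in heifer 664, 684 CPM in 604 and 1223 CPM in 557, which were the 3 lowest of 23. On D55 they were 772, 1231 and 1491 CPM, in places 2, 9 and 14 from the lowest, although ADGRE3 was lowest in the same heifers. Over all genes 11.6% were called higher and 1596 of 16841 lower in this comparison. Of 13 eosinophil markers 1 was lower, CSF2RB, and 1 was higher, LTC4S (log2 fold change 2.18, SE 0.62, edgeR FDR = 0.0175), the enzyme of cysteinyl leukotriene synthesis, so the share called was no larger than over all genes. LTC4S on D105 was 27.9 CPM in heifer 604, the highest of 23. In heifer 664 it was 2.40 CPM, below the median of 3.02 CPM, so its direction rests on heifer 604. Of 13 pathway genes tested, 1 was called higher, LTC4S, which rests on heifer 604 as above. The 3 called lower were CSF2RB (-1.89, SE 0.65, edgeR FDR = 0.042), STAT5A (-0.58, SE 0.14, edgeR FDR = 0.00736) and STAT5B (-0.94, SE 0.22, edgeR FDR = 0.00627). The part of these markers in the ADGRE3 difference was not tested.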

How the data were processed

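After trimming, the authors mapped reads to ARS-UCD1.2 using HISAT2 2.1.0, and HTSeq-count (union mode) gave the number per RefSeq gene. These deposited counts were not normalized. Library kit strand and the handling of reads shared by related ADGRE genes are not given in the sources used here. Rows that name no gene were left out of totals.

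The fits used edgeR 4.0.16 under R 4.3.3 (TMM, filterByExpr at a minimum count of 10, quasi-likelihood F-test, Benjamini-Hochberg over all genes tested, FDR of 0.05), with the compared libraries alone in each fit. Each SE of a main fit is the absolute log2 fold change divided by the square root of its F statistic. DESeq2 1.42.0 and edgeR's likelihood ratio test were alternatives. In simulated counts with 200 changed genes, 82% of 2-fold and 93% of 4-fold changes were called with 8 against 8 libraries with 7 false calls, and 47% and 73% with 2 against 21 on D105 with 6 false calls. Fits leave out the heifer in the main design, and the same animal gives the pairing: over genes, deviations from group means of the 2 libraries of a heifer had a mean r of 0.53 (0.30 to 0.81, all 23 over 0.1).

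Correlations used log2(CPM + 0.5) with 2-sided permutation tests (100000 resamples; exact for 6 or 8 heifers). The members, marker lists and tests were chosen with earlier results of these data known. Named genes are the members, the 5 genes most like ADGRE3 and 3 most like each other member, up to 6 pathway genes and a few of each marker list; further pathway and marker genes were named after their values were seen. All heifers are separate animals, and counting intervals cover counting error only. The Ensembl counts were not used here.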

Additional observations from a re-analysis of the deposited data

Results flagged for a closer look

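In 30 groups of 6 to 9 heifers, 1 gene and day each, 4 had a heifer whose gap to its nearest neighbour took an unusually large share of the group's range on the log2(CPM + 0.5) scale. Chance alone gives such a gap in about 1 of 20 groups (a share of 5%). ADGRE3 was selected on its D55 spread, so this share does not apply to its D55 groups. Its flags on that day are a description only. Heifer 648 had the lowest ADGRE3 of the AI group on D55, 7.33 CPM against 18.6 CPM in the next, a gap of 0.617 of the range. The same heifer had the lowest CCR3 of that group and day, 9.05 CPM against 15.7 CPM, a gap of 0.531. Heifer 519 had the lowest ADGRE3 of the IVP-Normal group on D55, 8.15 CPM against 21.8 CPM, a gap of 0.649. Heifer 688 had the highest ALOX15 of the IVP-Normal group on D55, 8.26 CPM against 1.69 CPM, a gap of 0.693, and it was also the highest of that group on D105 with 193 CPM.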

How the results depend on the processing

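Of 82 counts of the called among the 5 genes followed here, 77 stayed within 1.5 times the main count, most of them at 0 in both settings. In IVP-LOS between days, 2 of 5 genes were called with heifers as a replicate block and 0 without heifers 604 and 664. For 604 and 664 on D105, 2 were called with edgeR's likelihood ratio test and with DESeq2, which added CCR3, and 0 to 1 when either heifer was left out; the 1 left is CCR3, not ADGRE3, with 1 library in that arm. The block changed no other member's call. It moved the genes called from 1517 to 2603 in AI, from 374 to 838 in IVP-Normal and from 38 to 162 in IVP-LOS.

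Among the main relations, ADGRE3 with CCR3 on D55 passed with r = 0.57 without 604 and 664 and 0.80 without 557, 604 and 664, whereas its call by rho was lost with upper-quartile scaling (adjusted p = 0.0569), after subtraction of group means (0.143) and without 557 and 664 (0.0859), all by permutation. On D105 it turned to 0.073 and 0.17 in these settings and 0.0089 after subtraction of group means, and ADGRE3 with IL5RA turned to -0.10 without the 2 farthest heifers; none of these passed the test. Between days, ADGRE3 lost its call without 557, 604 and 664 (r = 0.20), IL5RA lost it on CPM without log (r = 0.36), and ADGRE5 passed without its 2 farthest heifers (r = 0.47) and after subtraction of group means (r = 0.48).

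The other reversed values did not pass the test in either setting. Without heifers 604 and 664 they were CCR3 between days in IVP-LOS (-0.024), IL5RA on D105 in IVP-LOS against AI (-0.19) and against IVP-Normal (-0.16), the CCR3 change in IVP-LOS against AI (-0.30), and r of ADGRE5 with ALOX15 on D55 (-0.0075) and of the ADGRE5 and CCR3 changes (0.11). With heifer 664 alone against the others, they were IL5RA (0.31) and CCR3 (-0.65) on D55 and CCR3 (-0.61) on D105; with 604 alone these were -0.74, 0.71 and 2.18, the last with an FDR of 0.0466. In these fits 1 library stands against 21 and is assumed to vary like the others. The replicate block gave -0.075 for the IL5RA change in IVP-Normal and -0.0017 for the CCR3 change in IVP-LOS against AI. On CPM without log, r was -0.019 for ADGRE5 with IL5RA and -0.13 with CCR3 on D105, -0.14 for the ADGRE3 and CCR3 changes and -0.033 for the ADGRE5 and IL5RA changes. Without the 2 farthest heifers r was -0.12 for ADGRE5 with CCR3 on D105, -0.29 for the ADGRE5 and IL5RA changes and -0.35 for the ADGRE5 and ALOX15 changes, and in the BACKUP set it was -0.22 for ADGRE5 with CCR3. Without 557, 604 and 664, an alternative chosen after seeing the data like that without 637, r was -0.0077 for ADGRE5 with ALOX15 on D55, and for changes -0.075 (ADGRE3 and ALOX15), 0.17 (ADGRE5 and CCR3) and -0.14 (ADGRE5 and ALOX15). The cause of these reversals was not tested.

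Genes called in IVP-Normal between days were 613 with the likelihood ratio test, 748 with DESeq2 and 657 with all libraries in the fit. In IVP-LOS they were 227, 336 and 558, 12 without 604 and 664 and 24 without 637. For 604 and 664 they were 567 and 725 on D105 when 604 or 664 was left out, and 0 to 9 against 3 on D55. With upper-quartile scaling 983 of 1675 calls in AI were higher on D105, against 1100 of 1517, and 27 of 40 in IVP-LOS, against 30 of 38. Counts from Ensembl genes were not run because their identifiers were not matched to symbols here, nor were correlations of ADGRE1. Levels under about 10 CPM, as for ALOX15 on D55, limit what can be told apart.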
